A study of Mus musculus with 16 samples.

Results

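The transcripts described here are 50 genes of the interferon response and of antigen presentation by class I molecules of the major histocompatibility complex (MHC), measured in RNA from the dorsal hippocampus of mice. They were taken from a fixed list of gene symbols, and all 50 were found among the 55385 Ensembl gene identifiers of the count tables and among the 16899 genes that passed the low-count filter and were tested. Recombinant adeno-associated virus (rAAV), injected into the dorsal hippocampus, carried GFP, a fluorescent protein, as the control, or else Dnmt3a2, a shorter form of the DNA methyltransferase Dnmt3a, as an exogenous copy. All mice were trained 3 weeks later in contextual fear conditioning, in which a place is associated with a foot shock, and were killed 1 day or 5 days after training. The groups are called Control_1d, Dnmt3a2_1d, Control_5d and Dnmt3a2_5d, and each had 4 libraries, 16 in all. Every group, the controls included, had therefore received a virus and the training, and no uninjected or untrained tissue was analysed here. The labels do not name the strain, age or sex of the mice, the serotype or promoter of the virus, or the cells it entered, and leave unstated whether 2 libraries can stem from 1 mouse, so p-values refer to library spread, which may be technical.

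Type I interferons are secreted when a cell detects foreign or misplaced nucleic acid. Type I interferons act through the receptor chains Ifnar1 and Ifnar2 and the kinases Jak1 and Tyk2, and the factors activated include Stat2 and Irf9, which take part in binding interferon-stimulated response elements in DNA. Interferon-gamma acts through Ifngr1, Ifngr2, Jak1 and Jak2, and its target genes are known for gamma-activated sites. The induced genes include sensors of nucleic acid, antiviral effectors and GTPases of the defence against intracellular parasites. They also include the machinery that cuts peptides and loads them on MHC class I for display to CD8+ T cells. In the uninfected brain much of this expression belongs to microglia, endothelium and other cells that are not neurons.

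The RefSeq promoter windows of the members, 250 bases before to 50 bases after a start site on GRCm38.p6, were searched on both strands for GAAA-NN-GAAA (NN is any pair of bases), the core of the interferon-stimulated response element, and for TTCNNNGAA, the gamma-activated site, which reads the same on both strands. A window was found for 42 of the 50 members. The element core was present in 20 of those 42 members (47.6%) and in 1079 of all 27025 genes with a window (3.99%). The gamma-activated site was present in 10 of the 42 members (23.8%) and in 2582 of the 27025 genes (9.55%). Both figures are descriptions, since the genes were listed for being interferon-induced. The element core was in the windows of 6 of 6 GTPase genes with a window, 3 of 3 sensors, 3 of 3 membrane restriction factors, 4 of 13 antiviral effectors, 2 of 6 genes of the ubiquitin-like and ADP-ribosylation system, 1 of 4 signalling genes and 1 of 7 MHC class I genes. The 150 bases before the start site are given below for 7 members that hold the element core there and whose values are described in the text or that represent a role, each read 5′ to 3′ along the gene's own strand, with the element core in capitals (or TTTC-NN-TTTC where it lies on the opposite strand, with overlapping matches joined).
Ifit1, chr19:34640739-34640888, plus strand: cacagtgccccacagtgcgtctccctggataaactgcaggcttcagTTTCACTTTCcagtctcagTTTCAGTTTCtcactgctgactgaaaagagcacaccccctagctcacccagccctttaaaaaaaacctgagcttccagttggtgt
Bst2, chr8:71537473-71537622, minus strand: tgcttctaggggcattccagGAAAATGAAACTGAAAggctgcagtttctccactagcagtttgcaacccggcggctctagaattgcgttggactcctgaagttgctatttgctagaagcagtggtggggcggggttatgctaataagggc
Isg15, chr4:156200819-156200968, minus strand: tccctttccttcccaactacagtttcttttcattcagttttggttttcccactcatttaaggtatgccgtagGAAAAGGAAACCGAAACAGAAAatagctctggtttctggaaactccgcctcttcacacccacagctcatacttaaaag
Irgm1, chr11:48871421-48871570, minus strand: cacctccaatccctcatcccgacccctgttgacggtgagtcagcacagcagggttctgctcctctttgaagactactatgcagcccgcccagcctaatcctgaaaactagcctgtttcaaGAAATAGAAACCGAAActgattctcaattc
Igtp, chr11:58199406-58199555, plus strand: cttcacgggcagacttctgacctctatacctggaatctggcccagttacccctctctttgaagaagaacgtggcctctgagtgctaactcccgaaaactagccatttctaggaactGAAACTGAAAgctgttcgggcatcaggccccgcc
Gbp2, chr3:142620513-142620662, plus strand: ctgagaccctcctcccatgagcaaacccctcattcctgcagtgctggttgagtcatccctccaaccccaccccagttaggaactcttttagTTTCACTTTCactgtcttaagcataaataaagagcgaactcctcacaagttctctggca
B2m, chr2:122147537-122147686, plus strand: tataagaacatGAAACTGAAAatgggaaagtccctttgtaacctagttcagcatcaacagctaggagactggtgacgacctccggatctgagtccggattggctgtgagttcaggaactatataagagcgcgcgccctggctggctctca

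In Ifit1 the matches began 104 and 85 bases before the start site, in Gbp2 59 bases, in Igtp 34 bases and in B2m 139 bases before it. In Bst2, Isg15 and Irgm1 overlapping copies formed 1 longer run of GAAA repeats. Igtp also held a gamma-activated site that began 45 bases before the start site, and Bst2 one that began 136 bases before it. A match says that these letters are in the window, and the files hold no measurement of binding or methylation at these sites.

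Expression was measured as estimated counts per gene, and totals were 28.6 to 30.0 M per library. Levels are given below in CPM, which sets each count against its library's total after adjustment by the trimmed mean of M-values (TMM), in the order of replicates 1 to 4 within each group. Dnmt3a, the gene the virus carried, lay between 32.7 and 37.7 CPM in the control libraries of both days, between 623 and 1153 CPM in Dnmt3a2_1d and between 1015 and 1249 CPM in Dnmt3a2_5d, as labelled. Markers of hippocampal neurons (8 genes, Rbfox3, Snap25 and Slc17a7 among them) summed to 5474 to 6043 CPM over all 16 libraries. The members themselves averaged from 0.424 CPM (Oasl1) to 144 CPM (B2m) over the 16 libraries, and 45 of the 50 averaged at least 1 CPM. Per kilobase of the annotation's median transcript length, the mean level was highest for B2m (168 CPM per kilobase) and H2-D1 (113) and lowest for Rsad2 (0.298).

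The members were highest in the same 3 libraries, which are called here the libraries that stood apart. The mean of log2(CPM + 1) over the 50 members, relative to its mean over all libraries, was 0.406 in Control_1d replicate 1, 0.551 in Dnmt3a2_1d replicate 1 and 0.719 in Dnmt3a2_5d replicate 1, and lay between -0.33 and 0.065 in the other 13 libraries. Control_5d had no such library, and its replicate 1 was at -0.093. The 3 high libraries all bear the replicate number 1. The labels do not say whether libraries of the same number share a preparation, and this was not tested. The number of members above their own median of the 16 libraries was 49 of 50 in Control_1d replicate 1, 49 in Dnmt3a2_1d replicate 1 and 50 in Dnmt3a2_5d replicate 1, and 3 to 36 in the other libraries. This count was not made for all genes tested. In 32 of the 50 members the 3 highest libraries were exactly these 3, which was so for 2.018% of all genes tested. The highest of the 16 values was in Dnmt3a2_5d replicate 1 for 31 members, in Dnmt3a2_1d replicate 1 for 15, in Control_1d replicate 1 for 3 and in Dnmt3a2_1d replicate 4 for Ifitm2. Of all genes tested, 7.012%, 11.23%, 5.385% and 11.04% were highest in these libraries, in the same order. The 3 of 50 in Control_1d replicate 1 was thus close to the share of all genes. The ratio of the highest to the lowest library had a median of 3.32 over the members and of 1.47 over 16658 genes tested, and ran from 1.37 for Cmpk2 to 35.4 for Zbp1.

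The other 13 libraries were spread as follows. In Dnmt3a2_1d, replicates 2, 3 and 4 had 34, 36 and 22 members above their median of the 16 libraries, against 8, 3 and 17 in replicates 2, 3 and 4 of Control_1d. In Control_5d the numbers were 21, 9, 36 and 27 for replicates 1 to 4, and in replicates 2, 3 and 4 of Dnmt3a2_5d they were 27, 7 and 5. With library totals in place of the scaling factors, or with a pseudocount of 0.1 CPM, the same 3 libraries led.

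**Figure D1:**
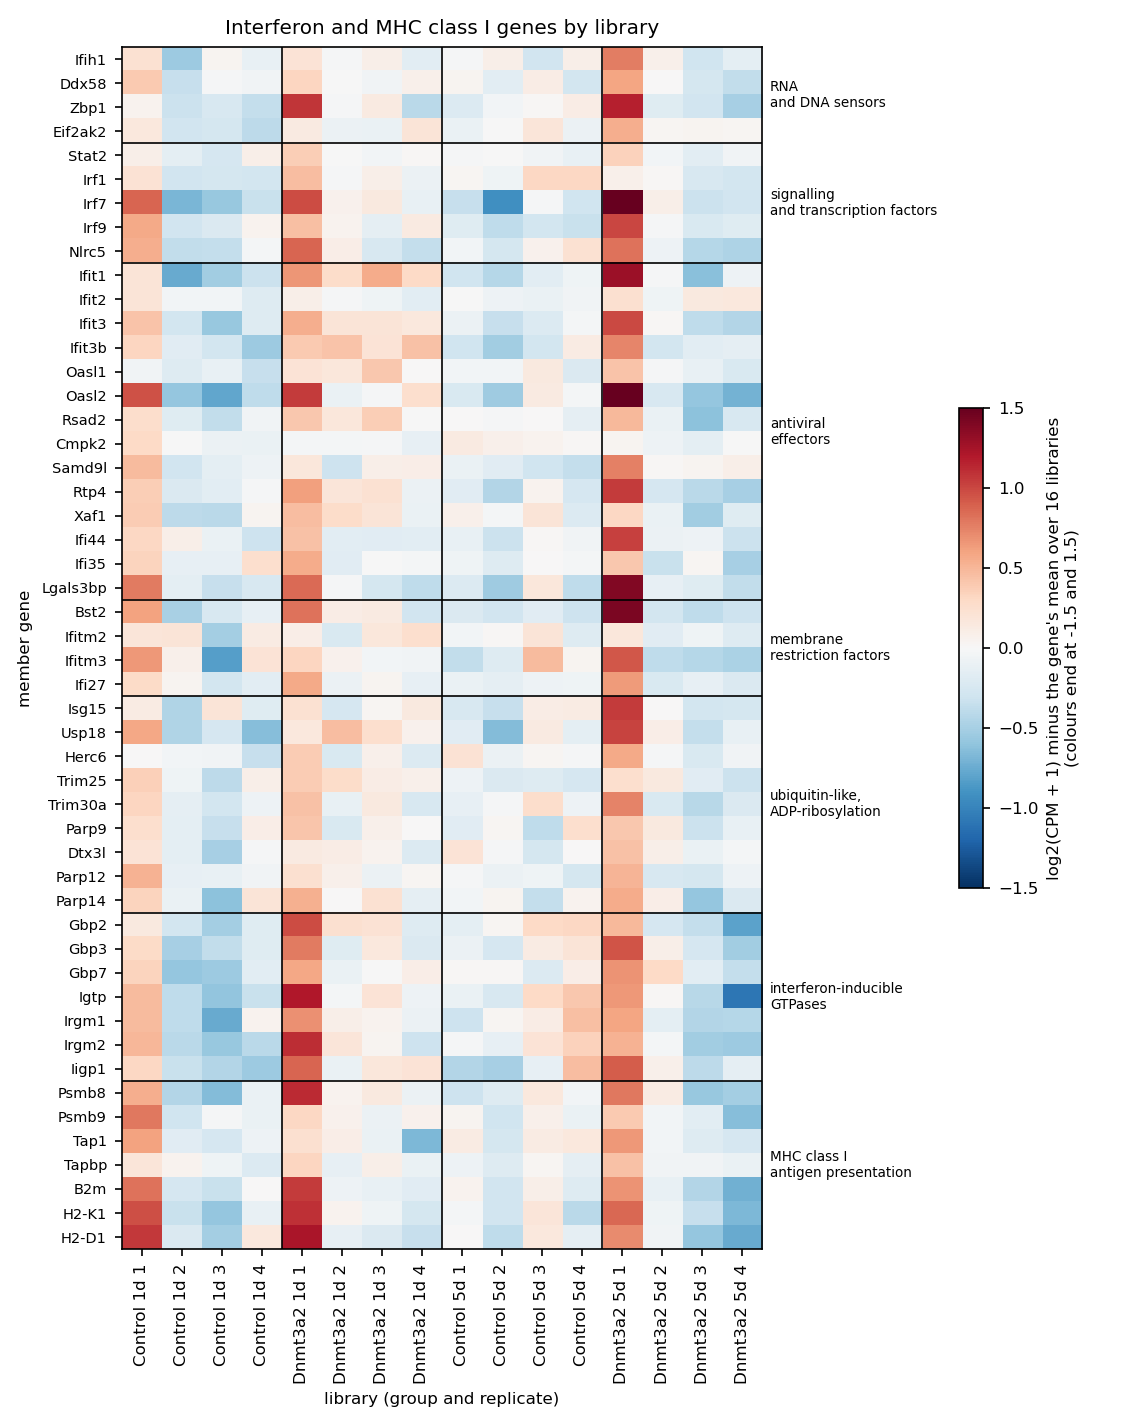
Each row is 1 of the 50 members, grouped by role, and each column 1 of the 16 libraries, and colour gives log2(CPM + 1) minus the gene's mean over the 16 libraries. The columns of Control_1d replicate 1, Dnmt3a2_1d replicate 1 and Dnmt3a2_5d replicate 1 are red in nearly every row (49, 49 and 50 of 50 members above their median of the 16 libraries), and no column of Control_5d is.

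At 1 day after conditioning, none of the 50 members passed an adjusted p of 0.05 between Dnmt3a2 and control in the edgeR quasi-likelihood test, with 0.0888% of all 16899 genes tested called (15 genes). The members' log2 fold changes were above 0 for 42 of 50, with a median of 0.230. Of all genes tested, 50.9% were above 0, and their median was 0.0029. The members were high in the same libraries, so their signs are not independent observations, at 1 day or at 5 days. At an unadjusted p under 0.05 there were 3 members, Oasl1, Ifit1 and Ifit3b, all higher with Dnmt3a2, and 3 of 50 is close to the 7.17% of all genes tested that passed this threshold, or the 3.88% that passed it on the higher side. DESeq2's Wald test also called 0 members, with 3 at an unadjusted p under 0.05. Libraries of Dnmt3a2_1d and Control_1d were without overlap for 2 members, Ifit1 and Oasl1, against 3.43% of all genes tested.

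At 5 days, none of the 50 members was called by the same test, with 0.32% of all genes tested called (54 genes). The log2 fold changes were above 0 for 40 of 50 members, with a median of 0.179, where 52.8% of all genes tested were above 0. Samd9l was the only member at an unadjusted p under 0.05 by edgeR, higher with Dnmt3a2, against 8.01% of all genes tested (3.97% on the higher side), and DESeq2's Wald test had 3 such members and called 0. Samd9l was also the 1 member whose libraries did not overlap between the groups, against 6.29% of all genes tested. Both comparisons hold 1 of the libraries that stood apart on the Dnmt3a2 side, and only the 1 day comparison has 1 on the control side.

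The sensors bind foreign or misplaced nucleic acid in the cytosol: Ddx58 (RIG-I) and Ifih1 (MDA5) bind viral RNA, Eif2ak2 (PKR) is a kinase that halts translation on double-stranded RNA, and Zbp1 binds nucleic acid in the Z form. Ddx58 stood at 8.01, 4.42, 5.805 and 5.66 CPM in Control_1d, 7.59, 5.87, 5.61 and 6.27 in Dnmt3a2_1d, 6.08, 5.18, 6.41 and 4.68 in Control_5d and 9.38, 5.89, 4.71 and 4.304 in Dnmt3a2_5d. Eif2ak2 stood at 4.64, 3.13, 3.23 and 2.85 CPM in Control_1d, 4.54, 3.75, 3.72 and 4.78 in Dnmt3a2_1d, 3.74, 4.05, 4.75 and 3.78 in Control_5d and 6.41, 4.18, 4.21 and 4.17 in Dnmt3a2_5d. Ifih1 stood at 4.12, 1.99, 3.503 and 3.05 CPM in Control_1d, 4.05, 3.298, 3.65 and 2.91 in Dnmt3a2_1d, 3.31, 3.65, 2.57 and 3.64 in Control_5d and 6.44, 3.59, 2.54 and 2.96 in Dnmt3a2_5d. For these 3 genes Dnmt3a2_5d replicate 1 was the highest of the 16 libraries, and the remaining libraries of the groups overlapped. At 1 day the log2 fold changes were 0.085 (SE 0.214, adjusted p = 0.973) for Ddx58, 0.28 for Eif2ak2 and 0.14 for Ifih1, and at 5 days 0.12, 0.22 and 0.24. Zbp1 had the widest range of all members, from 0.0673 to 2.38 CPM, with 2.16 CPM in Dnmt3a2_1d replicate 1, 2.38 in Dnmt3a2_5d replicate 1 and at most 0.654 in the other libraries. Its log2 fold change at 1 day, 1.49, was the largest of the members and also the least certain (SE 0.927, adjusted p = 0.809).

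Among the signalling genes, Stat2 and Irf9 take part in the complex that drives interferon-stimulated response elements, Irf7 amplifies interferon production, Irf1 mediates responses to interferon-gamma and Nlrc5 activates MHC class I genes. Irf7 stood at 6.95, 1.69, 1.92 and 2.43 CPM in Control_1d, 7.56, 3.51, 3.79 and 3.02 in Dnmt3a2_1d, 2.41, 1.29, 3.27 and 2.53 in Control_5d and 13.2, 3.59, 2.47 and 2.56 in Dnmt3a2_5d. Irf9 stood at 12.8, 6.71, 7.04 and 8.74 CPM in Control_1d, 11.8, 8.71, 7.51 and 9.32 in Dnmt3a2_1d, 7.25, 6.17, 6.72 and 6.41 in Control_5d and 17.7, 8.26, 6.97 and 7.296 in Dnmt3a2_5d. Stat2 stood at 19.04, 16.01, 14.8 and 18.98 CPM in Control_1d, 23.4, 17.7, 17.3 and 18.02 in Dnmt3a2_1d, 17.6, 17.8, 17.1 and 16.4 in Control_5d and 22.9, 17.4, 15.9 and 17.1 in Dnmt3a2_5d. Irf7 was at 6.95 to 13.2 CPM in the 3 libraries that stood apart and at 1.29 to 3.79 CPM in the rest. Irf7 had the largest log2 fold change at 5 days, 1.20 (SE 0.634, adjusted p = 0.708), and its group means were 2.38 ± 0.817 (SD, n = 4) CPM in Control_5d and 5.46 ± 5.19 (SD, n = 4) in Dnmt3a2_5d. Irf9 had 0.60 (SE 0.2902, adjusted p = 0.6503) at 5 days, and without Dnmt3a2_5d replicate 1 that value was 0.177, the lowest with any library left out. Irf1 followed another order: it was at 5.18 CPM in Dnmt3a2_5d replicate 1, below the 7.04 CPM of Dnmt3a2_1d replicate 1 and also below the 6.27 and 6.24 CPM of Control_5d replicates 3 and 4. Its log2 fold changes were 0.31 (SE 0.1701) at 1 day and -0.30 (SE 0.169) at 5 days. Nlrc5 was at 2.14, 2.95 and 2.81 CPM in the 3 libraries that stood apart and at 0.572 to 1.53 CPM in the others.

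The antiviral effectors were the largest role, with 14 members, and held the genes with the smallest p-values at both days. Ifit1, Ifit2, Ifit3 and Ifit3b encode proteins with tetratricopeptide repeats that bind viral RNA or one another, and lie side by side on chromosome 19 (Ifit1 at 34640871 to 34650009 on GRCm38.p6). Oasl1 and Oasl2 are relatives of the oligoadenylate synthetases, next to each other on chromosome 5 (Oasl1 at 114923240 to 114937915). Ifit1 stood at 2.998, 1.08, 1.44 and 1.804 CPM in Control_1d, 4.54, 3.23, 4.17 and 3.29 in Dnmt3a2_1d, 1.84, 1.59, 2.15 and 2.36 in Control_5d and 7.496, 2.47, 1.27 and 2.32 in Dnmt3a2_5d. Oasl1 stood at 0.362, 0.236, 0.309 and 0.104 CPM in Control_1d, 0.618, 0.5901, 0.861 and 0.416 in Dnmt3a2_1d, 0.367, 0.365, 0.563 and 0.208 in Control_5d and 0.891, 0.395, 0.3003 and 0.202 in Dnmt3a2_5d. Ifit3b stood at 5.27, 3.47, 3.13 and 2.43 CPM in Control_1d, 5.60, 5.73, 4.79 and 5.82 in Dnmt3a2_1d, 3.07, 2.49, 3.13 and 4.47 in Control_5d and 7.33, 3.16, 3.504 and 3.56 in Dnmt3a2_5d. All 4 libraries of Dnmt3a2_1d were above all 4 of Control_1d for Ifit1 and Oasl1, and for Ifit3b the lowest of Dnmt3a2_1d (4.79 CPM) was under the highest of Control_1d (5.27 CPM). The log2 fold change at 1 day was 1.28 (SE 0.456, adjusted p = 0.456) for Oasl1, 1.05 (SE 0.441, adjusted p = 0.629) for Ifit1 and 0.62 (SE 0.262, adjusted p = 0.629) for Ifit3b. Means of Ifit1 were 1.83 ± 0.833 (SD, n = 4) CPM in Control_1d and 3.81 ± 0.648 (SD, n = 4) in Dnmt3a2_1d. Oasl1 is the least abundant member, and its estimated counts per library were 3 to 27. Ifit3 and Ifit3b share sequence, with 61.8% of the 31-base words of Ifit3 transcripts also in other genes, Ifit3b above all, so that the split of reads between the pair is uncertain.

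At 5 days the smallest p-value belonged to Samd9l, an interferon-induced restriction factor on chromosome 6 (3372257 to 3399572). Samd9l stood at 2.701, 1.18, 1.41 and 1.53 CPM in Control_1d, 1.99, 1.15, 1.83 and 1.84 in Dnmt3a2_1d, 1.47, 1.36, 1.16 and 1.07 in Control_5d and 3.47, 1.68, 1.74 and 1.82 in Dnmt3a2_5d. The 4 Dnmt3a2 libraries at 5 days lay above the 4 controls, with means of 2.17 ± 0.864 (SD, n = 4) and 1.27 ± 0.181 (SD, n = 4) CPM and a log2 fold change of 0.78 (SE 0.279, adjusted p = 0.398), whereas at 1 day the value was -0.0046. Without Dnmt3a2_5d replicate 1 the 5 day value of Samd9l was 0.458. Ifit2 stood at 6.06, 4.99, 4.98 and 4.37 CPM in Control_1d, 5.57, 5.07, 4.89 and 4.51 in Dnmt3a2_1d, 5.11, 4.81, 4.75 and 4.92 in Control_5d and 6.24, 4.87, 5.81 and 5.88 in Dnmt3a2_5d. Ifit2 varied little, and its log2 fold change at 5 days was 0.22 (SE 0.116, adjusted p = 0.696).

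The remaining effectors ranged from steady to widely spread. Oasl2 stood at 13.5, 4.01, 3.37 and 4.75 CPM in Control_1d, 14.5, 5.97, 6.37 and 7.903 in Dnmt3a2_1d, 5.38, 4.18, 7.25 and 6.34 in Control_5d and 24.96, 5.36, 4.004 and 3.56 in Dnmt3a2_5d. Lgals3bp stood at 57.5, 29.7, 25.7 and 27.7 CPM in Control_1d, 60.4, 32.6, 27.2 and 25.03 in Dnmt3a2_1d, 28.6, 22.4, 37.2 and 25.2 in Control_5d and 88.1, 30.2, 29.0 and 25.4 in Dnmt3a2_5d. Cmpk2 stood at 27.6, 22.2, 20.9 and 20.8 CPM in Control_1d, 21.9, 21.8, 22.04 and 20.4 in Dnmt3a2_1d, 24.6, 23.6, 23.2 and 22.5 in Control_5d and 22.9, 21.03, 20.1 and 22.3 in Dnmt3a2_5d. Oasl2 and Lgals3bp, a secreted glycoprotein, followed the 3 libraries that stood apart, whereas Cmpk2, a mitochondrial nucleotide kinase, had the narrowest range of the 50 members. The log2 fold changes of Oasl2 were 0.43 (SE 0.654) at 1 day and 0.71 (SE 0.656) at 5 days, with group means at 5 days of 5.79 ± 1.32 (SD, n = 4) and 9.47 ± 10.3 (SD, n = 4) CPM for control and Dnmt3a2. Over the 14 effectors the median log2 fold change was 0.358 at 1 day, with 10 above 0, and 0.396 at 5 days, with 11 above 0. Of all genes tested, 50.9% and 52.8% were above 0. The effectors' mean of log2(CPM + 1), relative to all libraries, was 0.779 in Dnmt3a2_5d replicate 1. It was -0.255 to -0.117 in replicates 2 to 4 of that group and -0.257 to -0.018 in Control_5d.

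The membrane restriction factors hold virus at membranes: Bst2 (tetherin) ties budding particles to the cell surface, and Ifitm2 and Ifitm3 block fusion in endosomes. Bst2 stood at 5.798, 2.19, 2.78 and 3.12 CPM in Control_1d, 6.91, 3.85, 3.93 and 2.67 in Dnmt3a2_1d, 2.84, 2.66, 2.99 and 2.599 in Control_5d and 10.96, 2.698, 2.44 and 2.62 in Dnmt3a2_5d. Ifitm3 stood at 14.7, 9.57, 4.67 and 10.5 CPM in Control_1d, 11.5, 9.48, 8.71 and 8.67 in Dnmt3a2_1d, 6.78, 7.802, 12.9 and 9.32 in Control_5d and 18.1, 6.71, 6.44 and 6.22 in Dnmt3a2_5d. Ifi27 stood at 15.2, 12.7, 9.93 and 10.9 CPM in Control_1d, 18.7, 11.5, 12.6 and 11.1 in Dnmt3a2_1d, 11.4, 11.1, 11.6 and 11.7 in Control_5d and 19.7, 10.3, 11.2 and 10.4 in Dnmt3a2_5d. Bst2 in Dnmt3a2_5d replicate 1 was at 10.96 CPM, and no other library of that group passed 2.70 CPM. Ifitm3 in Control_5d replicate 3 (12.9 CPM) was above Dnmt3a2_1d replicate 1 (11.5 CPM), so it did not follow the same order. The log2 fold changes of Bst2 were 0.32 (SE 0.491) at 1 day and 0.76 (SE 0.497) at 5 days. Ifitm2 shares 55.5% and Ifitm3 20.5% of their 31-base words with other genes, and their counts are uncertain to that extent.

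Isg15 is a ubiquitin-like modifier, Herc6 its ligase in mice and Usp18 the protease that removes it and restrains the interferon receptor, while Parp9 with Dtx3l, Parp12 and Parp14 transfer ADP-ribose. Parp12 stood at 10.9, 6.61, 6.63 and 6.94 CPM in Control_1d, 8.76, 7.67, 6.79 and 7.45 in Dnmt3a2_1d, 7.18, 6.74, 6.901 and 5.89 in Control_5d and 10.8, 5.99, 5.87 and 6.83 in Dnmt3a2_5d. Dtx3l stood at 7.41, 5.56, 4.16 and 6.21 CPM in Control_1d, 7.01, 6.87, 6.54 and 5.303 in Dnmt3a2_1d, 7.42, 6.21, 5.04 and 6.31 in Control_5d and 8.88, 6.75, 5.81 and 6.15 in Dnmt3a2_5d. Trim30a stood at 2.73, 1.72, 1.48 and 1.84 CPM in Control_1d, 3.06, 1.77, 2.31 and 1.52 in Dnmt3a2_1d, 1.74, 1.96, 2.605 and 1.84 in Control_5d and 4.03, 1.55, 1.24 and 1.58 in Dnmt3a2_5d. Trim30a, a member of the tripartite motif family, was at 4.03 CPM in Dnmt3a2_5d replicate 1 and at most 1.58 CPM in replicates 2 to 4 of that group. Isg15 reached 2.41 CPM in Dnmt3a2_5d replicate 1 and stayed at or under 0.927 CPM elsewhere, with log2 fold changes of 0.27 (SE 0.579) and 0.75 (SE 0.569) at 1 and 5 days. All 9 genes of this role had a log2 fold change above 0 at 5 days and 8 of 9 at 1 day, with medians of 0.142 and 0.181. Of all genes tested, 52.8% and 50.9% were above 0. The mean of log2(CPM + 1) over the role, relative to all libraries, was 0.618 in Dnmt3a2_5d replicate 1. It was 0.011, -0.301 and -0.155 in replicates 2 to 4 of that group and -0.149 to -0.034 in Control_5d. Parp9 and Dtx3l overlap on opposite strands, and whether reads were counted by strand is not stated in the labels.

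The GTPases take part in defence against intracellular pathogens. Gbp2, Gbp3 and Gbp7 are guanylate-binding proteins, and Irgm1, Irgm2, Igtp and Iigp1 are immunity-related GTPases. Irgm1 stood at 12.9, 6.67, 4.91 and 9.33 CPM in Control_1d, 15.1, 9.65, 9.37 and 8.42 in Dnmt3a2_1d, 7.08, 9.16, 9.82 and 12.6 in Control_5d and 14.03, 8.03, 6.37 and 6.42 in Dnmt3a2_5d. Irgm2 stood at 7.94, 3.77, 3.26 and 3.75 CPM in Control_1d, 12.6, 6.14, 5.51 and 4.09 in Dnmt3a2_1d, 5.25, 4.78, 6.27 and 7.001 in Control_5d and 8.02, 5.199, 3.404 and 3.33 in Dnmt3a2_5d. Igtp stood at 7.58, 3.74, 3.09 and 3.89 CPM in Control_1d, 13.2, 5.03, 6.13 and 4.85 in Dnmt3a2_1d, 4.78, 4.22, 6.62 and 7.17 in Control_5d and 8.68, 5.26, 3.64 and 1.92 in Dnmt3a2_5d. Igtp and Irgm2 were highest in Dnmt3a2_1d replicate 1 (13.2 and 12.6 CPM), and in Control_5d replicates 3 and 4 both were at 6.27 to 7.17 CPM, above replicates 2 to 4 of Dnmt3a2_5d (1.92 to 5.26 CPM). At 1 day the log2 fold change was above 0 for 7 of 7 GTPases (50.9% of all genes tested), with a median of 0.596. At 5 days it was above 0 for 3 of 7 (52.8% of all genes tested), with a median of -0.149. Gbp2 had 0.67 (SE 0.321, adjusted p = 0.717) at 1 day and -0.35 (SE 0.323, adjusted p = 0.889) at 5 days. The difference of its Dnmt3a2 effect between days, -1.01 (SE 0.456), and that of Irf1, -0.61 (SE 0.240), were the only members at an unadjusted p under 0.05 in that comparison by edgeR, and both had an adjusted p of 1. Igtp overlaps Irgm2 on the same strand and shares 15.9% of its 31-base words with it.

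MHC class I presents peptides that the immunoproteasome subunits Psmb8 and Psmb9 help to cut, Tap1 transports and Tapbp (tapasin) helps to load, on the heavy chains H2-K1 and H2-D1 with the light chain B2m. B2m stood at 241, 115, 108 and 137 CPM in Control_1d, 282, 129, 126 and 121 in Dnmt3a2_1d, 141, 111, 146 and 119 in Control_5d and 218, 126, 101 and 82.8 in Dnmt3a2_5d. H2-D1 stood at 124, 50.1, 41.01 and 65.2 CPM in Control_1d, 138, 53.8, 50.1 and 46.1 in Dnmt3a2_1d, 58.9, 44.9, 65.3 and 53.4 in Control_5d and 96.1, 56.4, 38.7 and 34.3 in Dnmt3a2_5d. Psmb9 stood at 3.92, 1.31, 1.82 and 1.67 CPM in Control_1d, 2.54, 1.98, 1.69 and 1.98 in Dnmt3a2_1d, 1.94, 1.33, 2.01 and 1.66 in Control_5d and 2.74, 1.78, 1.57 and 0.841 in Dnmt3a2_5d. The 3 libraries that stood apart were the 3 highest for all 7 genes of this role, and Control_1d replicate 1 (241 CPM) held nearly as much B2m as Dnmt3a2_1d replicate 1 (282 CPM). The log2 fold change of B2m was 0.13 (SE 0.3697, adjusted p = 0.976) at 1 day and 0.029 (SE 0.371, adjusted p = 0.992) at 5 days, with means of 150.3 ± 61.9 (SD, n = 4) in Control_1d, 165 ± 78.5 (SD, n = 4) in Dnmt3a2_1d, 129 ± 16.8 (SD, n = 4) in Control_5d and 132 ± 60.3 (SD, n = 4) in Dnmt3a2_5d. Over the 7 genes the median was 0.058 at 1 day and 0.052 at 5 days, the lowest of the 7 roles at 1 day. H2-D1 and H2-K1 are polymorphic and share 26.9% and 22.8% of their 31-base words with other genes, each other above all, and Psmb9 and Tap1 overlap on opposite strands, so their separate counts are uncertain.

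**Figure D2:**
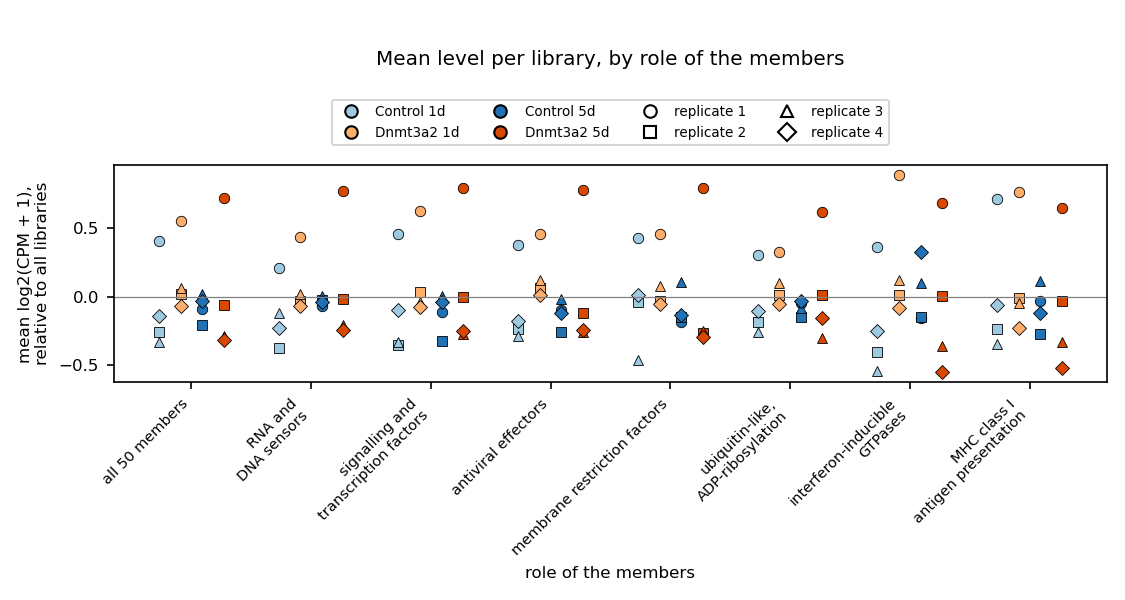
For all 50 members and for each of the 7 roles, every point is 1 library: the mean of log2(CPM + 1) over the genes of the role, relative to the mean of all libraries, with colour for the group and shape for the replicate number. The circles of Control_1d, Dnmt3a2_1d and Dnmt3a2_5d lie above the other points of their groups in every role, at 0.406, 0.551 and 0.719 for all members, and the circle of Control_5d lies at -0.093.

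The high libraries of Dnmt3a2_1d and Dnmt3a2_5d differed in which roles led. Dnmt3a2_5d replicate 1 was above Dnmt3a2_1d replicate 1 in 35 of the 50 members: in 4 of 4 sensors, 4 of 4 membrane restriction factors, 12 of 14 antiviral effectors and 7 of 9 genes of the ubiquitin-like and ADP-ribosylation system. Dnmt3a2_1d replicate 1 was the higher in 4 of 7 MHC class I genes (B2m, H2-K1, H2-D1 and Psmb8), 4 of 7 GTPases (Gbp2, Igtp, Irgm1 and Irgm2) and 3 of 5 signalling genes. These splits are near even, and the count was not made for all genes tested. By mean score, Dnmt3a2_1d replicate 1 was higher for GTPases (0.887 against 0.682) and MHC class I genes (0.764 against 0.645). For signalling genes it was lower (0.627 against 0.791). The ratio of Dnmt3a2_1d replicate 1 to Dnmt3a2_5d replicate 1 had a median of 0.705 over the effectors, 1.08 over the GTPases and 1.18 over the MHC class I genes. Relative to the median of the 16 libraries, Control_1d replicate 1 was at a median ratio of 1.45 for the effectors, 1.43 for the GTPases and 1.91 for the MHC class I genes. These are single libraries, so no test was made of the difference.

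**Figure D3:**
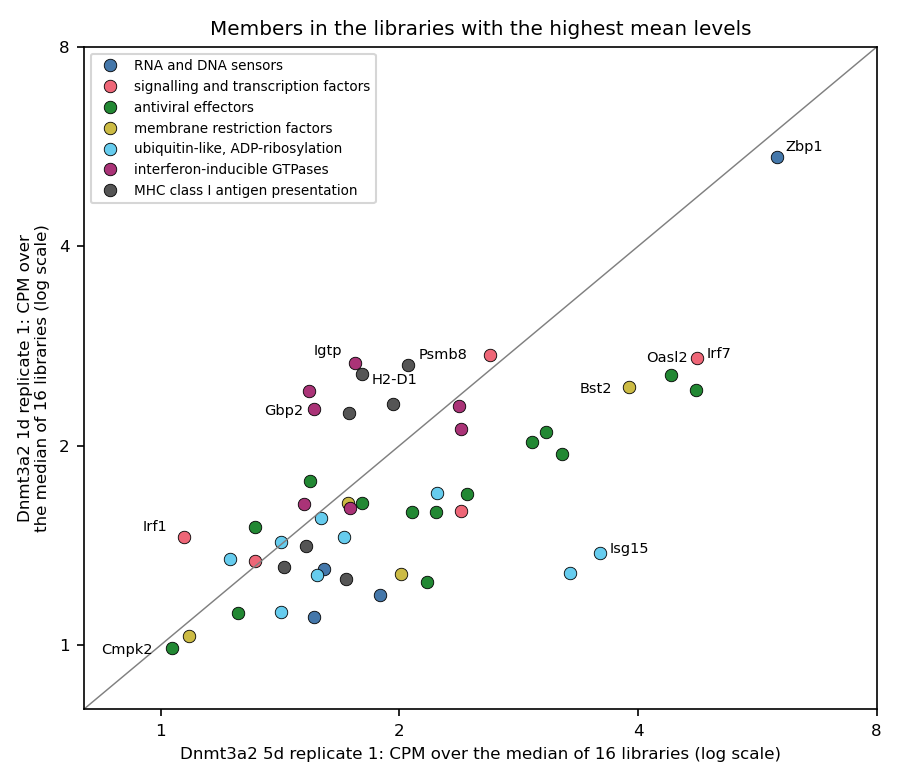
Each point is 1 of the 50 members, coloured by role, placed by its CPM over the median of the 16 libraries in Dnmt3a2_5d replicate 1 (horizontal) and in Dnmt3a2_1d replicate 1 (vertical), both on log axes, with a line where the values are equal. Igtp, Gbp2, H2-D1 and Psmb8 lie above the line, and Irf7, Oasl2, Bst2 and Isg15 below it; 35 of the 50 members are below.

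How far the comparisons rest on the libraries that stood apart was measured by leaving them out, which was chosen after seeing the data and by the members' own levels, so the values are a description. Removing libraries in this way narrows the members' spread, so their SEs and p-values come out too small. The shares of all genes tested are therefore not a like reference for the members' counts. The same holds where 1 of these 3 libraries is left out alone. Without Control_1d replicate 1, Dnmt3a2_1d replicate 1 and Dnmt3a2_5d replicate 1, again no member was called in any comparison by edgeR. At 1 day 46 of 50 members were then above 0, with a median of 0.245, and 16 had an unadjusted p under 0.05, all higher with Dnmt3a2, against 6.86% of all genes tested. Those 16 were Ifit1, Ifit3, Ifit3b, Oasl1, Oasl2, Rsad2, Xaf1, Usp18, Eif2ak2, Irf1, Irf7, Gbp2, Gbp7, Irgm2, Iigp1 and Psmb8. Ifit1 then had a log2 fold change of 1.30 (SE 0.250, against 0.441 with all libraries) and the smallest adjusted p of the members, 0.0573. At 5 days the median was then -0.179, only 10 of 50 were above 0, and 10 members had an unadjusted p under 0.05 and were lower with Dnmt3a2 (Zbp1, Irf1, Oasl2, Cmpk2, Trim30a, Gbp2, Igtp, Irgm1, Irgm2 and B2m), with Samd9l alone higher, against 10.5% of all genes tested. For the difference of the Dnmt3a2 effect between days, the median was then -0.49, where it was -0.028 with all libraries. There, 18 members had an unadjusted p under 0.05, all lower at 5 days, against 3.02% of all genes tested. Leaving out the 3 removes a high library from both sides of the 1 day comparison and from the Dnmt3a2 side alone at 5 days.

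Single libraries also moved the values. Without Control_1d replicate 1 all 50 members were above 0 at 1 day, with a median of 0.457 and 15 at an unadjusted p under 0.05 against 8.78% of all genes tested. Without Dnmt3a2_1d replicate 1 there were 29 above 0, with a median of 0.06 and 1 at an unadjusted p under 0.05 against 5.84%. That count at 1 day was 1 without replicate 2, 3 or 4 of Control_1d, against 5.62%, 6.07% and 8.22% of all genes tested. It was 6 without Dnmt3a2_5d replicate 1, against 7.56%. At 5 days 10 members were above 0 without Dnmt3a2_5d replicate 1, with a median of -0.179. At that time 4 members had an unadjusted p under 0.05 without replicate 3 or without replicate 4 of that group, against 7.4% and 6.22% of all genes tested.

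**Figure D4:**
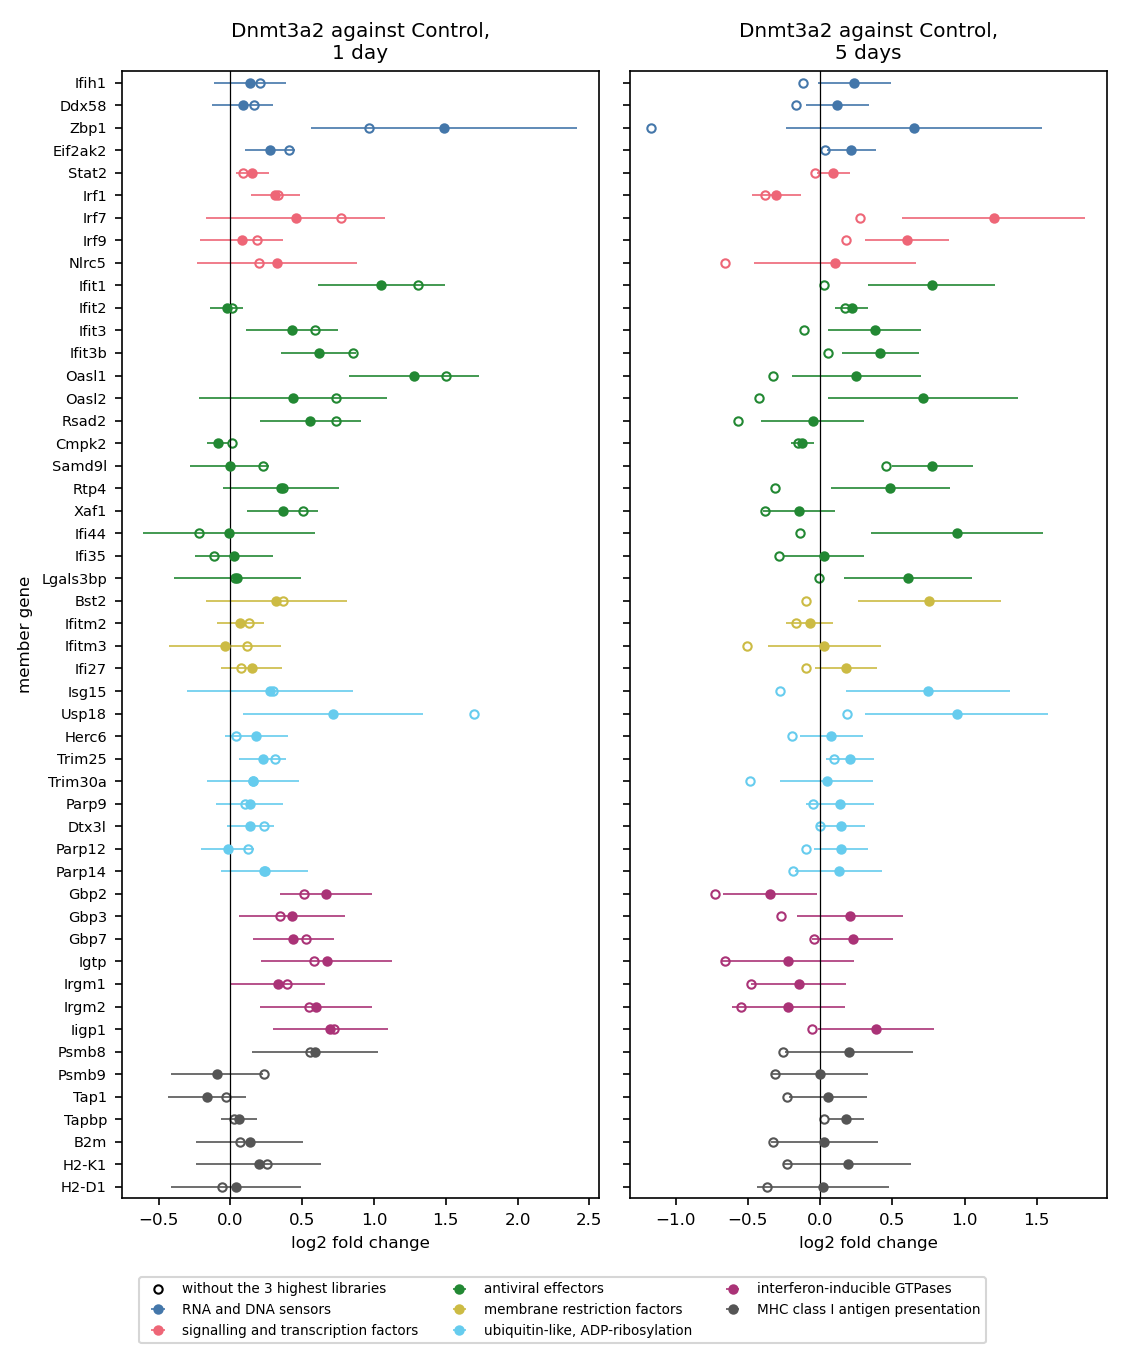
For each of the 50 members, filled points give the log2 fold change of Dnmt3a2 against control at 1 day (left) and 5 days (right) over all libraries, bars the standard error, and open points the same value without the 3 highest libraries. Filled points are above 0 for 42 members at 1 day and 40 at 5 days, and open points for 46 and 10.

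Between the days, edgeR's quasi-likelihood test called no member in either virus group and no gene of all tested (0% in both). DESeq2's Wald test called 0 genes in control and 44 genes in Dnmt3a2, none of them a member. In control mice 21 of 50 members were above 0 at 5 days against 1 day (50% of all genes tested), with a median of -0.046, and 0 members had an unadjusted p under 0.05 by edgeR or DESeq2, against 3.54% of all genes tested. In Dnmt3a2 mice 18 of 50 were above 0 (50.2% of all genes tested), with a median of -0.063, and again 0 had an unadjusted p under 0.05 by both tools, against 10.8% of all genes tested. Libraries of 1 day and 5 days overlapped for each of the 50 members in both virus groups, where 2.4% of all genes tested were without overlap in control and 5.17% in Dnmt3a2. The difference of the Dnmt3a2 effect between days was above 0 for 21 of 50 members (51.2% of all genes tested) and was called for 0 members and 0% of all genes tested. There were 2 members (Irf1 and Gbp2) at an unadjusted p under 0.05 by edgeR and 2 by DESeq2, against 2.13% of all genes tested, and both were on the lower side, against 1.07%. Without Control_1d replicate 1 the median between days in control was 0.209, and without Dnmt3a2_5d replicate 1 the median between days in Dnmt3a2 was -0.568, with 15 members at an unadjusted p under 0.05, all lower at 5 days, against 14.3% of all genes tested. Without Dnmt3a2_1d replicate 1 the latter median was 0.101, and without replicate 3 or replicate 4 of Dnmt3a2_5d it was 0.04 or 0.025, so its sign was not settled by these libraries. The comparisons share libraries with one another, and their values are not independent.

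The interferon genes themselves gave almost no counts. Of 21 interferon genes, 18 had no estimated count in any library, and Ifng, Ifnz and Ifnb1 had 6, 3 and 1 counts over all 16 libraries. A count of 0 allows up to 0.105 CPM, before TMM scaling, in the shallowest library (3 counts), so low levels were not detectable at this depth. This limit covers counting error only. Among receptors, kinases and genes of induction, 27 genes were listed, of which Mb21d1 matched no gene identifier and was not measured. Of the 26 matched, 25 were tested and 0 were called at 1 day or at 5 days. There were 13 and 20 above 0 (50.9% and 52.8% of all genes tested), with medians of 0.003 and 0.066. By mean CPM the leading genes of that list were Jak1, the kinase of both receptor types, and Ifngr2, a receptor chain of interferon-gamma. Jak1 ran from 126 to 166 CPM with a median of 139, and Ifngr2 from 94.3 to 109 CPM with a median of 102, and both were near their medians in the 3 libraries that stood apart. Over the 26 matched genes, however, the mean of log2(CPM + 1), relative to all libraries, was highest in those 3. It was 0.132 in Control_1d replicate 1, 0.219 in Dnmt3a2_1d replicate 1 and 0.197 in Dnmt3a2_5d replicate 1. In the other libraries it lay between -0.12 and 0.024.

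Other interferon-induced genes and other genes of antigen presentation were not called either. For their counts above 0, the share of all genes tested was 50.9% at 1 day and 52.8% at 5 days. Of 54 further interferon-induced genes 47 were tested: 0 were called at either day, 42 were above 0 at 1 day (median 0.311) and 38 at 5 days (median 0.261). Adar, the RNA editing enzyme, and Znfx1, a helicase of RNA sensing, the leading genes of that list by mean CPM, had log2 fold changes of 0.061 and 0.072 at 1 day and 0.045 and 0.043 at 5 days. Of 17 other MHC class I genes 16 were tested and 0 called. Calr (calreticulin), a chaperone of the loading complex, had the smallest adjusted p of that list at 1 day, with a log2 fold change of 0.31 (SE 0.082, adjusted p = 0.239), and Canx (calnexin) had 0.062 (SE 0.051, adjusted p = 0.862). Of 11 MHC class II genes, which serve presentation to CD4+ T cells, 11 were tested and 0 called, with 10 above 0 at 1 day (median 0.582) and 8 at 5 days (median 0.406). Cd74 stood at 61.4, 13.2, 11.03 and 14.8 CPM in Control_1d, 129.9, 25.6, 26.4 and 20.6 in Dnmt3a2_1d, 21.2, 21.9, 31.1 and 25.4 in Control_5d and 86.9, 25.6, 14.7 and 7.296 in Dnmt3a2_5d. Ctss stood at 55.02, 42.2, 36.1 and 39.2 CPM in Control_1d, 70.01, 39.3, 38.1 and 34.3 in Dnmt3a2_1d, 35.98, 36.5, 39.7 and 38.9 in Control_5d and 61.3, 41.6, 34.5 and 32.6 in Dnmt3a2_5d. Cd74, the invariant chain, and Ctss, the protease that trims it, were highest in Dnmt3a2_1d replicate 1 and had the same 3 leading libraries as the members.

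Markers of other cell types were measured beside these values, since in bulk tissue fewer cells of a type and less RNA per cell cannot be told apart. On the same score as for the members, the 10 microglia markers were at 0.172, 0.297 and 0.283 in Control_1d replicate 1, Dnmt3a2_1d replicate 1 and Dnmt3a2_5d replicate 1 and between -0.352 and 0.053 elsewhere. The 9 markers of monocytes and border macrophages were at 0.222, 0.348 and 0.452 in those libraries, and the 12 markers of T and NK cells at 0.144, 0.296 and 0.167, with values elsewhere of at most 0.058 and 0.012. Their levels were low: the markers of monocytes and border macrophages summed to 4.61 to 11.4 CPM in Control_1d, 2.81 to 11.2 in Dnmt3a2_1d, 3.64 to 5.64 in Control_5d and 4.47 to 13.1 in Dnmt3a2_5d, and 5 of the 9 passed the low-count filter. The markers of T and NK cells summed to 1.92 to 5.04 CPM, 2.33 to 6.87, 2.17 to 2.99 and 1.65 to 5.32 CPM in the same order of groups, and 2 of the 12 passed it. Microglia markers summed to 425 to 528, 364 to 591, 458 to 472 and 427 to 585 CPM. No marker of any of the lists was listed at 0 in all libraries, and none was called in the Dnmt3a2 comparisons. Their part in the members' values was not tested.

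Choroid plexus markers (10 genes, Ttr and Enpp2 among them) separated the libraries differently. They summed to 1175 CPM in Dnmt3a2_1d replicate 1 and 1822 CPM in Dnmt3a2_5d replicate 1, against 157 CPM in Control_1d replicate 1 and 367 CPM at most in the others. The range was 135 to 187 CPM in Control_1d and 139 to 367 CPM in Control_5d. Without those 2 choroid-rich libraries, an alternative chosen after seeing the data, 0 members were called, 29 of 50 were above 0 at 1 day (median 0.06) and 10 of 50 at 5 days (median -0.179). These 2 were also the libraries highest in the members (0.551 and 0.719), and Control_1d replicate 1 was kept. At 1 day, leaving out Dnmt3a2_1d replicate 1 alone gave the same count above 0 and median. At 5 days, leaving out Dnmt3a2_5d replicate 1 alone did so too. Endothelial markers were at 0.253, 0.304 and 0.237 in the 3 libraries that stood apart, and at 0.256 in Control_1d replicate 4 and 0.299 in Dnmt3a2_1d replicate 2, where the members were at -0.14 and 0.019. Blood markers were highest in Control_5d replicate 3 (score 1.17), where the members were at 0.02, and markers of hippocampal neurons stayed between -0.095 and 0.081 throughout. The part of these cell types in the members' values was not tested.

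**Figure D5:**
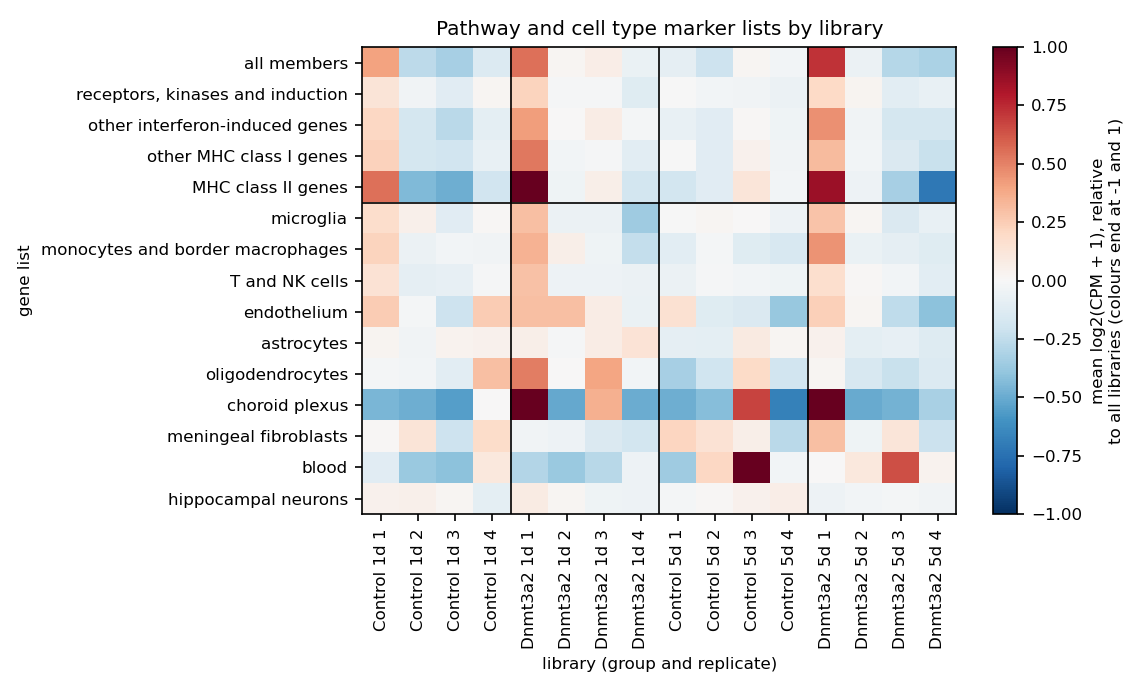
Rows are the 50 members, 4 pathway lists and 10 lists of cell type markers, columns are the 16 libraries, and colour is the mean of log2(CPM + 1) over the list relative to all libraries, with colours ending at -1 and 1. The member row and the MHC class II row share their 3 reddest columns, the choroid plexus row is red in Dnmt3a2_1d replicate 1 and Dnmt3a2_5d replicate 1 (1.91 and 2.45) but not in Control_1d replicate 1 (-0.455).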

How the data were processed

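RNA of mouse dorsal hippocampus was sequenced in 16 libraries, 4 per group. The authors deposited expected counts (estimated counts, not normalised, 26.2% of them not whole) for 55385 genes. They also deposited log2 CPM for 16907 genes, which differed by at most 5.329e-15 from edgeR's log2 CPM of the same counts. Per the submitters' processing notes, Trim Galore 0.6.4, kallisto 0.4.6, edgeR 3.17 and build GRCm38.p6 were used, with no order of steps, annotation release or strand setting stated. Genes were named with GENCODE M21 (55144 identifiers matched).

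Counts were rounded, filtered with filterByExpr, scaled with TMM and fitted in 1 robust quasi-likelihood model with a term per group (edgeR 4.0.16, R 4.3.3), which tested 16899 genes, among them all 50 members. A gene counted as called when its p, adjusted by Benjamini-Hochberg over all genes tested, was under 0.05. The script was checked on simulated data, in which every gene had the same dispersion and no library stood apart. That check does not cover genes spread as the members are. Levels are CPM with TMM scaling, and scores use a pseudocount of 1 CPM. Totals were 28.6 to 30.0 M, so before TMM scaling 1 CPM stands for 28.6 to 30.0 estimated counts, and the scaling shifts this somewhat in each library. Alternatives were DESeq2 1.42.0 (size factors and Wald test), no filter, a mean CPM of at least 1, limma-trend (limma 3.58.1), a replicate block, a fit on only the groups compared, and each library left out. Named with values in every library were, per role, the 2 members with the highest mean CPM and the one with the widest range at a mean of at least 1 CPM, and the 3 with the smallest p at each day. The members, lists and tests were chosen with earlier results of these data known. Promoter windows are from RefSeq (GRCm38.p6), and 42 of 50 members matched by symbol.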

Additional observations from a re-analysis of the deposited data

Results flagged for a closer look

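Within a group of 4 libraries, the gap between the highest or the lowest library and the next, divided by the group's range, passed Dixon's 95% critical value in 21 cases among the members given in every library, all at the highest library. Chance alone passes it in about 1 in 20 groups, but that is not a like reference for these 21 cases. The members given in every library were chosen partly for a wide range or a small p. They were also high in the same libraries, so the cases are not independent.

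In Dnmt3a2_5d the library was replicate 1 each time. It stood at 6.41 CPM for Eif2ak2, 13.2 for Irf7, 17.7 for Irf9, 7.33 for Ifit3b, 25.0 for Oasl2 and 3.47 for Samd9l. For Lgals3bp it stood at 88.1 CPM, for Bst2 at 10.96, for Ifitm3 at 18.1, for Ifi27 at 19.7 and for Trim30a at 4.03.

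In Dnmt3a2_1d the library was also replicate 1, at 23.4 CPM for Stat2, 7.56 for Irf7, 13.2 for Igtp, 282 for B2m and 138 for H2-D1. In Control_1d it was replicate 1 as well, at 6.95 CPM for Irf7, 13.5 for Oasl2, 57.5 for Lgals3bp, 10.9 for Parp12 and 7.94 for Irgm2.

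Over all 50 members, the value was passed by 16 members (32%) in Dnmt3a2_5d, all in replicate 1, where 6.47% of genes tested passed it. It was passed by 9 (18%) in Dnmt3a2_1d, all in replicate 1, with 6.04% of genes. In Control_1d it was passed by 9 (18%), 7 of them by a high replicate 1 and 2 by a low library (Ifitm2 in replicate 3, Herc6 in replicate 4), with 5.12% of genes. In Control_5d it was passed by 1 member (2%), Tap1, by a low replicate 2, with 5.48% of genes. Choroid plexus markers were high in the first 2 of these libraries and not in Control_1d replicate 1, and their part in the members' values was not tested.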

How the results depend on the processing

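In all 5 comparisons, 0 members were called under every alternative run, each of the 16 libraries left out included. The median log2 fold change of the members moved by more than 1 SD between replicates of the members' score (0.329) in 6 cases. The difference of the Dnmt3a2 effect between days had a median of -0.49 without the 3 libraries in which the members were highest. At 5 days the median was -0.179 without those 3 libraries and also -0.179 without the 2 choroid-rich libraries. With single libraries left out, the medians ran from 0.06 to 0.457 at 1 day, from -0.179 to 0.268 at 5 days, from -0.149 to 0.209 between days in control, from -0.568 to 0.101 between days in Dnmt3a2 and from -0.428 to 0.15 for the difference, and the count of members called was 0 each time. Counts of all genes called moved by over 1.5 times with DESeq2's Wald test (59 at 1 day, 143 at 5 days, 44 between days in Dnmt3a2 and 1 for the difference, against 15, 54, 0 and 0), with no low-count filter (34 at 1 day and 6 between days in Dnmt3a2), with only the groups compared (7 at 1 day and 94 at 5 days), and without the 3 libraries (105 at 5 days) or the 2 libraries (90 at 5 days). With single libraries left out, the count at 1 day was 6 without Control_1d replicate 2 and 7 without Dnmt3a2_1d replicate 3. At 5 days it was 22 and 33 without replicates 4 and 3 of Dnmt3a2_5d, 29, 30 and 26 without replicates 1, 3 and 4 of Control_5d, and 82 without Control_1d replicate 3. Between days in Dnmt3a2 it was 1 without Dnmt3a2_5d replicate 1.

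The replicate block gave 0 members called, with 7, 3, 2, 3 and 4 at an unadjusted p under 0.05 in the 5 comparisons (1 day, 5 days, between days in control and in Dnmt3a2, and the difference), against 7.96%, 8.63%, 4.52%, 12.2% and 2.54% of all genes tested. Its medians were 0.258 at 1 day, 0.097 at 5 days, 0.012 and -0.153 between days and -0.118 for the difference. Of 24 pairs of libraries with the same number in different groups, 9 had deviations that correlated above 0.1 (-0.0998 to 0.442), and for 8 of 16 libraries the best match bore the same number. No values for pairs with different numbers are given beside these, so they do not settle whether libraries of a number belong together. The main fit had no term for the replicate number, and a shared preparation was not tested. The replicate 1 libraries of Control_1d, Dnmt3a2_1d and Dnmt3a2_5d, in which the members were highest, correlated with one another at 0.36, 0.236 and 0.442, and with Control_5d replicate 1 at 0.0292, -0.0859 and -0.0998. At the depth of these libraries 5 members averaged under 1 CPM, and their fold changes rest on few counts.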
